A study of Mus musculus with 7 samples.

Results

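Principal cells of the renal collecting duct take up water and sodium in the last part of the nephron, and 10 genes that carry this work were followed here in whole kidney RNA from mice with streptozotocin diabetes. The genes were chosen by name, as Aqp2, Aqp3, Aqp4, Avpr2, Scnn1a, Scnn1b, Scnn1g, Hsd11b2, Nr3c2 and Sgk1. All 10 were listed among the 17537 genes of the table, and all 10 were among the 13976 genes that reached 1 CPM in 2 or more libraries and were tested. CPM (counts-per-million) is a gene's read count scaled to the size of its library, here as adjusted by the authors' TMM scaling. Control mice (C, n = 3, replicates 2, 8 and 9) received the sodium citrate vehicle. DM-22 mice (n = 2, replicates 1 and 2) received streptozotocin, a toxin of the insulin-producing beta cells, at 60 mg/kg on 5 days, and stayed hyperglycaemic to week 22. DM+SGLT2i mice (n = 2, replicates 1 and 2) had the same streptozotocin course and, after 16 weeks, drank water with 25 mg/kg dapagliflozin, an inhibitor of the glucose transporter SGLT2, for the last 6 weeks. All were C57BL/6 mice, 8 to 10 weeks old at the start and labelled male, while the study's methods give both sexes. The libraries were of polyadenylated RNA from whole kidney, a mixture of all nephron segments, so fewer principal cells and less RNA per principal cell cannot be told apart in any value below. Nothing in the labels says more of how the samples of a group were obtained than their numbers, so p-values measure only the spread between these samples.

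In the principal cell, vasopressin binds the V2 receptor (Avpr2) and, through cyclic AMP, moves the water channel aquaporin-2 (Aqp2) into the apical membrane and raises its transcription. Water leaves the cell on the basolateral side through aquaporin-3 (Aqp3) and aquaporin-4 (Aqp4). Sodium enters through the epithelial sodium channel ENaC, built of the subunits alpha (Scnn1a), beta (Scnn1b) and gamma (Scnn1g). Aldosterone acts on the mineralocorticoid receptor (Nr3c2), the enzyme 11-beta-hydroxysteroid dehydrogenase type 2 (Hsd11b2) shields that receptor from glucocorticoids, and the kinase SGK1 (Sgk1), itself an aldosterone target, keeps ENaC in the membrane. Glucose that stays in the urine draws water with it, so that a diabetic kidney and a kidney under SGLT2 inhibition both face an osmotic diuresis.

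The genes lie apart from each other except for a single pair. On the mouse genome GRCm38 (GENCODE M21), Scnn1g (chr7:121734479-121768475) and Scnn1b (chr7:121865038-121918514) are on the same strand with 96.6 kb between them. Aqp2 lies at chr15:99579055-99584547, Aqp3 at chr4:41092722-41098183 and Avpr2 at chrX:73892102-73895502. Scnn1a lies at chr6:125320659-125344943, Hsd11b2 at chr8:105518755-105523988, Nr3c2 at chr8:76899442-77245012 and Sgk1 at chr10:21882184-21999903. Avpr2 shares up to 1295 bases of exon with Arhgap4 on the opposite strand, and whether the counting used strand is not given in the sources used here. Arhgap4 was at 1.64 to 3.89 CPM, against 11.0 to 46.3 CPM for Avpr2, while Gm10649, which shares 155 bases with Nr3c2, did not pass 0.33 CPM.

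The 250 bases before the start site are shown for the 2 neighbouring ENaC genes, for Aqp2, the member with the highest level per length, and for 1 of the 6 Sgk1 windows. These members are the ones whose levels are set against each other below. The Sgk1 window shown is the only member window with the full receptor palindrome given below, so it is not an unselected one. The other Sgk1 windows did not hold it. The sequences are RefSeq's (GRCm38.p6), 7 of the 10 genes matched the table of windows, and they had 12 windows in all. Aqp4, Scnn1a and Hsd11b2 are named only. Capitals mark every match, on either strand, to the palindrome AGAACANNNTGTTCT of the glucocorticoid and mineralocorticoid receptors, to its half-site TGTTCT, which lies within the palindrome, to the cyclic AMP element TGACGTCA and its half-site TGACG, to TGGAAA, the core bound by the tonicity factor NFAT5, and to TATAAA.
Scnn1g, chr7:121734229-121734478, plus strand: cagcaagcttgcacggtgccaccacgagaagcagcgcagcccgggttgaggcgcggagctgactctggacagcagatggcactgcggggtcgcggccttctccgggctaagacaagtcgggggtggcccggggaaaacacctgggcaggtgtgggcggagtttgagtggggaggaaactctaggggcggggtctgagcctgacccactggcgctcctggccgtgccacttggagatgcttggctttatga
Scnn1b, chr7:121864788-121865037, plus strand: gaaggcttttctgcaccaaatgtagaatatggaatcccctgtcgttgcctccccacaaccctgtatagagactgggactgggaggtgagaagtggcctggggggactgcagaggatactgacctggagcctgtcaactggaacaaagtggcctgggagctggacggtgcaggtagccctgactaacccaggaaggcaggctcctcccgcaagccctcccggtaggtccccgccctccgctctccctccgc
Aqp2, chr15:99578806-99579055, plus strand: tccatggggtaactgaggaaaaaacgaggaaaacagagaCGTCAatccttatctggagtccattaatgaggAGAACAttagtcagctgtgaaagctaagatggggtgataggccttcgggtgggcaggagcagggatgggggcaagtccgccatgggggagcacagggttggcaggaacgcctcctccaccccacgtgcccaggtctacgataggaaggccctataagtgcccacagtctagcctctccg
Sgk1, chr10:21993640-21993889, plus strand: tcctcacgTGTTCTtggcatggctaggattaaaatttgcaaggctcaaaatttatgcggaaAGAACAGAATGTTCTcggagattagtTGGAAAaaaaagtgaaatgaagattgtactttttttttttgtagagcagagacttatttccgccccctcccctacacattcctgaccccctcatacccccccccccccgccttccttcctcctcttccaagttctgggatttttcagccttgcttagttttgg
The full palindrome was found in this Sgk1 window, from -189 to -175 relative to the start, as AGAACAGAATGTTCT, and in 3 of the 32851 windows of the table, or 0.00913%. Neither ENaC window held any of the 6 motifs. Aqp2 held TGACG on the reverse strand, from -211 to -207, as 17.8% of all windows did, and the half-site AGAACA, as 16.1% did. A match is a description of the letters and no sign that a factor binds there.

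Each library held 46456125 to 56541594 reads on the listed genes, and the members had between 169 reads (Aqp4 in DM-22 replicate 2) and 35558 reads (Aqp2 in DM-22 replicate 1). Counting error was small beside the spread between libraries, but less so for Nr3c2, which had 1017 to 1534 reads and the narrowest range, 1.31-fold. C replicate 2 stood apart from C replicates 8 and 9. Its median absolute log2 difference over the genes tested was 0.41 and 0.39 to those 2 libraries, which differed from each other by 0.11, while it was 0.18 from DM+SGLT2i replicate 2. The proximal tubule phosphate transporter Slc34a1 was at 2841 CPM in C replicate 2, against 8363 and 8096 CPM in the other controls. The 6 macrophage markers summed to 488 CPM in it, against 136 and 135 CPM. C replicate 9 had 331 CPM of the immediate early gene Fos, where every other library had at most 5.43 CPM. The comparisons of the members with C are therefore given from all 7 libraries first, and without C replicate 2 further on.

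Per length of exon, Aqp2 was the highest of the 10 genes and Nr3c2 the lowest. The level, in CPM per kilobase of exon, was 230 ± 131 (SD over 7 libraries) for Aqp2, 128 ± 44.9 for Hsd11b2, 69.6 ± 10.5 for Aqp3 and 47.4 ± 15.9 for Scnn1a. It was 24.9 ± 8.63 for Scnn1b, 23.1 ± 10.2 for Sgk1, 18.2 ± 6.56 for Scnn1g, 9.46 ± 5.01 for Avpr2, 7.58 ± 6.21 for Aqp4 and 3.75 ± 0.327 for Nr3c2. Neighbours in this order overlapped over the libraries in every case. Within a library, Hsd11b2 was above Aqp3 in 7 of 7 and Scnn1a above Scnn1b in 7 of 7, whereas Sgk1 was above Scnn1g, and Avpr2 above Aqp4, in 4 of 7 each. Aqp2 exceeded Hsd11b2 in 6 of 7, the exception being DM-22 replicate 2 with 117 against 178 CPM per kilobase.

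No member passed the test in any comparison. Of all genes tested with limma on log2(CPM + 0.5), 0% passed an adjusted p of 0.05 in each direction in each of the comparisons, so the members did not differ from the background in this. At an unadjusted p under 0.05, limma had 625 genes in DM-22 against C, 151 in DM+SGLT2i against C, 547 in DM+SGLT2i against DM-22 and 285 in the diabetic mice, both groups together, against C. With voom on the recovered reads the adjusted count was also 0 in each, and the unadjusted counts were 517, 148, 533 and 259. Among the members only Aqp3 in DM-22 against C was under 0.05 unadjusted, where 1.19% of genes were so with a higher mean and 3.28% with a lower one. The log2 fold change was above 0 for 8 of the 10 members in DM-22 against C (50.7% of all genes), for 9 in DM+SGLT2i against C (47.2%), for 5 in DM+SGLT2i against DM-22 (50.6%) and for 8 in the diabetic mice against C (50.8%). The members' median log2 fold changes were 0.39, 0.23, -0.04 and 0.32, beside medians over all genes of 0.00, -0.01, 0.00 and 0.00. The comparisons share libraries and are not independent.

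**Figure D1:**
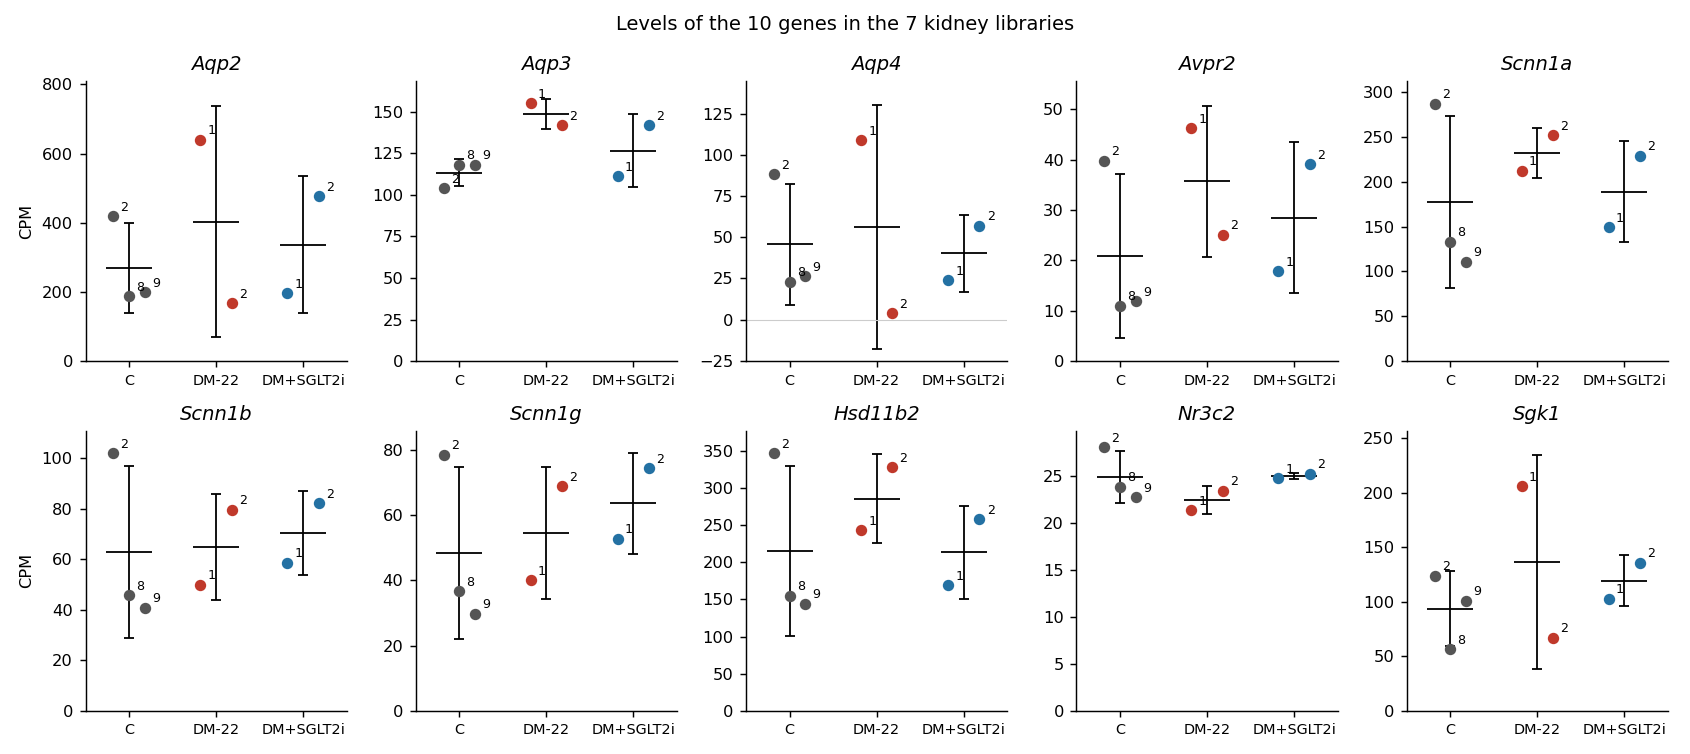
CPM of each member (vertical axis, from 0 except where an error bar of Aqp4 reaches below it) by group, with 1 point per library numbered by its replicate, and bars for the mean and SD (n = 3, 2 and 2). C replicate 2 lies apart from both other controls in many panels, as it does over all genes tested. The groups overlap except in Aqp3 between C and DM-22, in Aqp3 between the diabetic groups and in Nr3c2 between the diabetic groups.

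The water channel genes differed more between the libraries of a group than between groups, except Aqp3. Values are given here and below in the order C replicates 2, 8 and 9, DM-22 replicates 1 and 2, and DM+SGLT2i replicates 1 and 2. The level of Aqp2, the vasopressin-regulated apical channel, was 419, 188 and 199 CPM in C, 640 and 167 CPM in DM-22, and 197 and 477 CPM in DM+SGLT2i. C replicate 2, DM-22 replicate 1 and DM+SGLT2i replicate 2 were high and the other 4 libraries low, so each group held at least 1 high and 1 low library. The log2 fold change of Aqp2 was 0.38 ± 0.68 (SE, limma, 95% interval -1.24 to 2.01, adjusted p = 0.896) in DM-22 against C and -0.09 ± 0.74 (-1.87 to 1.69, adjusted p = 0.987) in DM+SGLT2i against DM-22. These intervals hold changes of more than 2-fold in either direction.

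Aqp3, the basolateral channel that passes water and glycerol, was the steadiest of the water channels. Its level was 104, 118 and 118 CPM in C, 155 and 142 CPM in DM-22, and 111 and 142 CPM in DM+SGLT2i. Both DM-22 libraries were above all 3 controls, as in 10.8% of all genes, and both were above the DM+SGLT2i libraries, with the closest of these equal after rounding. DM+SGLT2i was lower than DM-22 in this way in 20% of all genes. In DM-22 against C the Aqp3 log2 fold change was 0.39 ± 0.16 (SE, 95% interval 0.02 to 0.77), with an unadjusted p of 0.0425 and an adjusted p of 0.804 by limma. Without C replicate 2 the Aqp3 value was 0.33 ± 0.15 (95% interval -0.05 to 0.71, limma unadjusted p = 0.0747, adjusted p = 0.24), no longer under 0.05 unadjusted. From all 7 libraries it was 0.15 ± 0.16 in DM+SGLT2i against C (adjusted p = 1) and -0.24 ± 0.17 in DM+SGLT2i against DM-22 (adjusted p = 0.881). None of these passed the adjusted threshold.

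Aqp4, a basolateral water channel of principal cells that the proximal straight tubule of the mouse also expresses, had the widest spread. Its level was 88.3, 23.0 and 26.2 CPM in C, 109 and 3.91 CPM in DM-22, and 23.8 and 57.0 CPM in DM+SGLT2i. DM-22 held both the highest and the lowest library, 27.8-fold apart. The fitted log2 fold changes of Aqp4 were -0.80 ± 1.32 in DM-22 against C (95% interval -3.96 to 2.36, limma adjusted p = 0.886), -0.03 ± 1.32 in DM+SGLT2i against C (adjusted p = 1) and 0.77 ± 1.45 in DM+SGLT2i against DM-22 (adjusted p = 0.934). The sign of the first turned to 1.51 without DM-22 replicate 2 and stood at -3.12 without DM-22 replicate 1.

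Avpr2, the vasopressin receptor that drives Aqp2, was at 39.8, 11.0 and 11.9 CPM in C, 46.3 and 25.1 CPM in DM-22, and 17.9 and 39.1 CPM in DM+SGLT2i. All 4 diabetic libraries were above C replicates 8 and 9, and C replicate 2 was above all of them but DM-22 replicate 1. The Avpr2 log2 fold change was 0.95 ± 0.63 in DM-22 against C (95% interval -0.56 to 2.47, limma adjusted p = 0.804) and 0.59 ± 0.63 in DM+SGLT2i against C (adjusted p = 1). Without C replicate 2 it was 1.54 ± 0.43 (0.49 to 2.59, adjusted p = 0.115) and 1.18 ± 0.43 (0.13 to 2.23, adjusted p = 0.24). Between the diabetic groups it was -0.36 ± 0.69 (adjusted p = 0.937).

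The ENaC subunit genes had a common order of the libraries, with C replicate 2 highest, both replicates 2 of the diabetic groups next or close to it, and C replicates 8 and 9 low. The pore-forming alpha subunit Scnn1a was at 287, 133 and 111 CPM in C, 212 and 252 CPM in DM-22, and 149 and 229 CPM in DM+SGLT2i. Scnn1b was at 102, 45.9 and 40.9 CPM in C, 50.0 and 79.6 CPM in DM-22, and 58.6 and 82.3 CPM in DM+SGLT2i. Scnn1g was at 78.5, 36.6 and 29.8 CPM in C, 40.1 and 68.8 CPM in DM-22, and 52.7 and 74.4 CPM in DM+SGLT2i. For each subunit the 4 diabetic libraries lay between the 2 low controls and the high one. The log2 fold changes in DM-22 against C were 0.51 ± 0.42 for Scnn1a, 0.13 ± 0.43 for Scnn1b and 0.25 ± 0.45 for Scnn1g (limma adjusted p = 0.808, 0.955 and 0.897). In DM+SGLT2i against C they were 0.19 ± 0.42, 0.26 ± 0.43 and 0.50 ± 0.45, each with an adjusted p of 1. Between the diabetic groups they were -0.32 ± 0.46, 0.14 ± 0.47 and 0.25 ± 0.49 (adjusted p = 0.908, 0.968 and 0.937). Their 95% intervals ran from -1.42 to 0.77 for Scnn1a, from -0.99 to 1.26 for Scnn1b and from -0.92 to 1.42 for Scnn1g.

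Hsd11b2, which inactivates glucocorticoids in aldosterone target cells, followed Scnn1a. Its level was 347, 155 and 144 CPM in C, 243 and 328 CPM in DM-22, and 169 and 258 CPM in DM+SGLT2i. As for ENaC, the 4 diabetic libraries lay above C replicates 8 and 9 and below C replicate 2. The Hsd11b2 log2 fold change was 0.51 ± 0.42 in DM-22 against C (limma adjusted p = 0.807), 0.07 ± 0.42 in DM+SGLT2i against C (adjusted p = 1) and -0.44 ± 0.46 in DM+SGLT2i against DM-22 (95% interval -1.54 to 0.66, adjusted p = 0.881).

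The receptor gene Nr3c2 was almost level. It was at 28.1, 23.9 and 22.8 CPM in C, 21.4 and 23.5 CPM in DM-22, and 24.8 and 25.3 CPM in DM+SGLT2i, with the highest library 1.31-fold above the lowest. Both DM+SGLT2i libraries were above both DM-22 libraries, as in 21.4% of all genes. The gap between the closest of them, 23.5 and 24.8 CPM, was not tested against counting error. The Nr3c2 log2 fold change was -0.14 ± 0.15 in DM-22 against C (95% interval -0.49 to 0.21, limma adjusted p = 0.826), 0.01 ± 0.15 in DM+SGLT2i against C (-0.34 to 0.36, adjusted p = 1) and 0.15 ± 0.16 between the diabetic groups (adjusted p = 0.881). The widest bound of these intervals was 0.53, between the diabetic groups.

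Sgk1, the aldosterone-induced kinase, was at 124, 56.4 and 101 CPM in C, 206 and 66.9 CPM in DM-22, and 103 and 136 CPM in DM+SGLT2i. DM-22 replicate 1 was the highest library and C replicate 8 the lowest, and the groups overlapped. The Sgk1 log2 fold change was 0.40 ± 0.52 in DM-22 against C (95% interval -0.86 to 1.65, limma adjusted p = 0.863), 0.41 ± 0.52 in DM+SGLT2i against C (adjusted p = 1) and 0.01 ± 0.57 between the diabetic groups (adjusted p = 0.998). Sgk1 is also induced by acute stimuli, and C replicate 9, the library with high Fos, had more of it than C replicate 8, its nearest library over all genes. The part of the immediate early response in this was not tested.

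**Figure D2:**
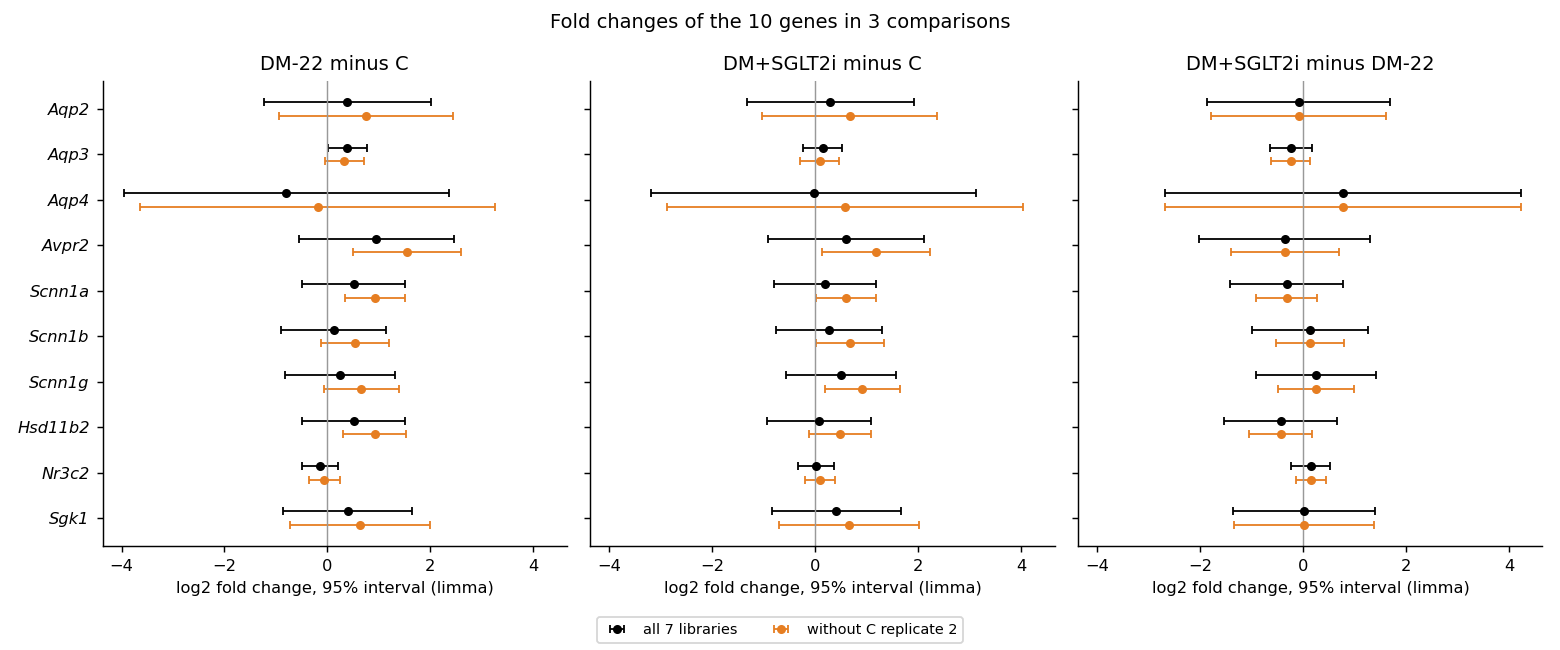
Fitted log2 fold change of each member (horizontal axis) with its 95% interval from limma, in 3 comparisons, from all 7 libraries (black) and without C replicate 2 (orange). With all libraries only the Aqp3 interval in DM-22 against C, 0.02 to 0.77, lies off 0; without C replicate 2 the intervals of Avpr2 and Scnn1a lie above 0 against C in both diabetic groups.

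Leaving out C replicate 2 raised the values of the sodium genes against C without bringing one past the threshold. In the 4 diabetic libraries against C replicates 8 and 9, Avpr2, Scnn1a, Scnn1b, Scnn1g and Hsd11b2 were higher in every diabetic library than in both controls. That is 5 of 10 members, where 15.1% of all genes were higher and 20.8% lower in this way. Each of these 5 genes was more than 2 times higher in C replicate 2 than in both other controls. Their count and p-values without that library are therefore not independent of leaving it out. The log2 fold changes were 1.36 ± 0.37 for Avpr2, 0.76 ± 0.20 for Scnn1a, 0.79 ± 0.26 for Scnn1g, 0.70 ± 0.22 for Hsd11b2 and 0.61 ± 0.23 for Scnn1b. Their limma adjusted p were 0.108, 0.108, 0.147, 0.132 and 0.182, and the unadjusted p were 0.0109, 0.0104, 0.0235, 0.0184 and 0.0402, in a fit in which 10.4% of all genes were under 0.05 unadjusted with a higher mean and 14.5% with a lower one. Only 18 genes passed the adjusted threshold with a higher mean and 10 with a lower one, 0.129% and 0.0716% of those tested, and none was a member. The members' median log2 fold change became 0.67, beside 0.00 over all genes. By group and without C replicate 2, the values in DM-22 against C were 0.92 ± 0.24 for Scnn1a, 0.54 ± 0.27 for Scnn1b, 0.66 ± 0.30 for Scnn1g and 0.92 ± 0.25 for Hsd11b2 (limma adjusted p = 0.105, 0.265, 0.23 and 0.111). In DM+SGLT2i against C they were 0.60 ± 0.24, 0.67 ± 0.27, 0.91 ± 0.30 and 0.48 ± 0.25 (adjusted p = 0.271, 0.27, 0.209 and 0.367). For the other members the DM-22 and DM+SGLT2i values against C were 0.76 ± 0.69 and 0.67 ± 0.69 for Aqp2, -0.19 ± 1.40 and 0.58 ± 1.40 for Aqp4, 0.64 ± 0.55 and 0.65 ± 0.55 for Sgk1, and -0.06 ± 0.12 and 0.10 ± 0.12 for Nr3c2. Aqp3 was at 0.09 ± 0.15 in DM+SGLT2i against C.

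Markers of several cell types moved in the same fit of the diabetic mice against C replicates 8 and 9. The median log2 fold change was 0.70 for the 10 markers of collecting duct identity, none of them a member, 0.65 for the thick ascending limb, 1.28 for inner medulla and urothelium, 1.02 for macrophages and -0.53 for the proximal tubule, where 10 of 10 markers were below 0. For inner medulla and urothelium it was 0.37 in DM-22 and 2.21 in DM+SGLT2i. Among the libraries of this fit the urothelial markers were highest in DM+SGLT2i replicate 1, with Krt5 at 34.7 CPM against 0.307 CPM in replicate 2. Slc14a2 went the other way, at 14.8 and 88.5 CPM. The left-out C replicate 2 also had more of the urothelial markers than the other controls. Krt5 was at 5.64, 0.442 and 0.427 CPM in C, and Psca at 24.7, 1.07 and 0.94 CPM. The shift of this list is thus not independent of leaving that library out. The complement gene C1qa, a macrophage marker, was the only gene of the lists past the adjusted threshold in this fit, with 1.29 ± 0.11 (limma adjusted p = 0.0449), and it was at 93.9 CPM in C replicate 2 against 13.7 and 13.7 CPM in the other controls and 27.8 to 42.1 CPM in the diabetic libraries. With all 7 libraries C1qa had 0.38 ± 0.67 (limma adjusted p = 0.988). C replicate 2 was set apart partly by its macrophage and proximal tubule markers, so their shifts without it are not independent of that choice. The part of the cell makeup of the libraries in the members' values was not tested directly. Relative to the mean of the 10 collecting duct markers in each library, with all 7 libraries, the diabetic minus C log2 values were 0.42 for Avpr2, 0.027 for Scnn1g, -0.0002 for Scnn1a, -0.055 for Hsd11b2 and -0.15 for Scnn1b, with SE of 0.49 to 0.51. From the same 7 libraries without this centring they were, in that order, 0.77, 0.38, 0.35, 0.29 and 0.20. With it Aqp4 went from -0.42 to -0.76 and Nr3c2 from -0.07 to -0.41, further from 0.

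**Figure D3:**
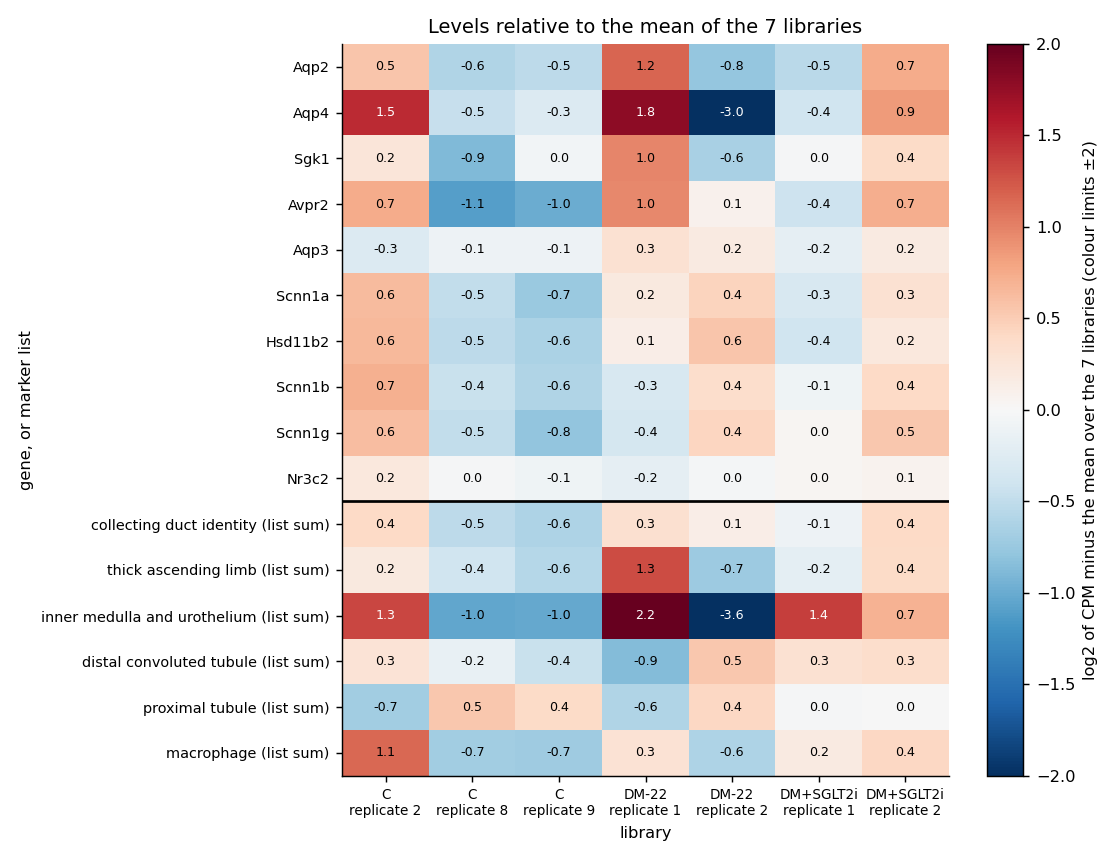
Log2 of CPM minus its mean over the 7 libraries (colour and printed value), for each member in the upper block and for the summed CPM of 6 marker lists in the lower block, with 1 column per library. Aqp2, Aqp3, Aqp4, Avpr2 and Sgk1 have their highest value in DM-22 replicate 1, as the thick ascending limb list does and, through Slc14a2 at 267 of 283 CPM, the inner medulla and urothelium list, while Scnn1a, Scnn1b, Scnn1g and Hsd11b2 have theirs in C replicate 2.

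Within the DM-22 pair the members differed in opposite directions. Aqp2 was 3.84-fold, Sgk1 3.08-fold and Aqp4 27.8-fold higher in DM-22 replicate 1 than in replicate 2, and Avpr2 1.84-fold. In the opposite direction, Scnn1g was 1.72-fold, Scnn1b 1.59-fold, Hsd11b2 1.35-fold and Scnn1a 1.19-fold higher in replicate 2. Of all genes tested, 7.68% were more than 2 times higher in replicate 1 and 5.37% more than 2 times higher in replicate 2. Markers of the medulla differed in the first direction: the thick ascending limb cotransporter Slc12a1 was at 5580 and 602 CPM, and Slc14a2, the urea transporter gene of the inner medullary collecting duct and thin limb, at 267 and 2.84 CPM. Most markers of the cortex differed in the second, with Slc34a1 at 2937 and 9452 CPM and the 6 distal convoluted tubule markers summing to 994 and 2626 CPM. Some did not, among them Slc27a2 of the proximal tubule, at 3493 and 3397 CPM, and Wnk4 of the distal convoluted tubule, at 322 and 249 CPM. The 10 collecting duct markers summed to 1226 and 1068 CPM, but singly they differed in both directions, from Elf5, at 7.49 and 0.393 CPM, and Ehf, at 51.1 and 12.1 CPM, to Tfcp2l1, at 287 and 375 CPM. In this pair of libraries Aqp2, Aqp4 and Sgk1 thus differed in the direction of the medullary markers, and ENaC and Hsd11b2 in that of most cortical ones. In C replicate 2, however, ENaC and Hsd11b2 were at their highest while the proximal tubule sum, 10687 CPM, was the lowest of the 7 libraries. Nor did Aqp2, Aqp4, Sgk1, ENaC and Hsd11b2 differ in opposite directions in the other groups. In DM+SGLT2i all were higher in replicate 2 than in replicate 1, from 1.32-fold for Sgk1 to 2.42-fold for Aqp2. In C replicate 2 they were from 1.58-fold (Sgk1) to 3.59-fold (Aqp4) the mean of C replicates 8 and 9. The part of the piece of kidney sampled was not tested.

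Over all 7 libraries Aqp2 kept close to the thick ascending limb markers. The mean log2(CPM + 0.5) of 6 such markers was 7.40 in DM-22 replicate 2, 7.43 and 7.46 in C replicates 9 and 8, 7.69 in DM+SGLT2i replicate 1, 8.43 in C replicate 2, 8.48 in DM+SGLT2i replicate 2 and 9.24 in DM-22 replicate 1. In the same order of libraries Aqp2, on that scale, was at 7.38, 7.64, 7.56, 7.63, 8.71, 8.90 and 9.32. The libraries thus fell into a set of 4 with low and 3 with high values of both, each set holding libraries of all 3 groups, and because they fall apart in this way the relation was not given as a correlation. Scnn1a and Hsd11b2 did not follow these markers, since DM-22 replicate 2, lowest in thick ascending limb markers, was below only C replicate 2 in both. With the mean of these markers as a covariate, a fit chosen after the data were seen, the log2 fold change of Aqp2 in DM-22 against C was -0.24 in place of 0.38 and that of Sgk1 -0.036 in place of 0.40. Aqp4 moved further from 0 in that fit, to -2.03 ± 0.27 in place of -0.80 in DM-22 against C (limma unadjusted p = 0.000269, adjusted p = 0.843), to -1.37 ± 0.23 in the diabetic mice against C (unadjusted p = 0.000829, adjusted p = 1) and to 1.31 ± 0.29 in DM+SGLT2i against DM-22 (unadjusted p = 0.00345, adjusted p = 0.726). No member passed the adjusted threshold.

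**Figure D4:**
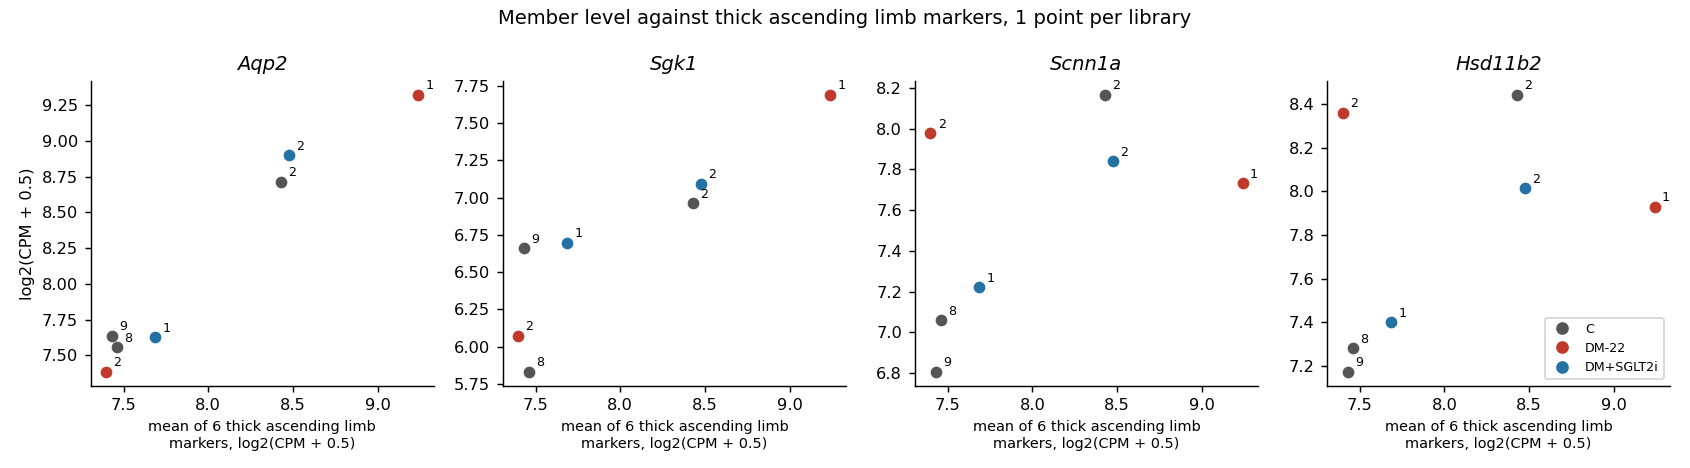
Level of 4 members (vertical axes, log2(CPM + 0.5), not starting at 0) against the mean of 6 thick ascending limb markers on the same scale, with 1 point per library numbered by replicate and coloured by group. Aqp2 and Sgk1 are highest in DM-22 replicate 1, at 9.24 on the horizontal axis, while Scnn1a and Hsd11b2 are highest in C replicate 2.

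Ratios between members within a library do not depend on how libraries were scaled. Of the 45 pairs, Scnn1a to Hsd11b2 was the most constant, from 0.767 to 0.887 over the 7 libraries, a 1.16-fold span, with a counting error of at most 1.84% for a ratio. Scnn1b to Scnn1g, the neighbouring genes, came next with a 1.24-fold span, and Aqp4 to Scnn1g was the least constant with a 47.6-fold span. Between Aqp2 and Aqp3, the apical and basolateral channels, the ratio ran from 1.17 in DM-22 replicate 2 to 4.12 in DM-22 replicate 1. The diabetic and control libraries did not overlap in 1 of the 45 ratios, or 2.22%, which was Scnn1b to Scnn1g. That ratio was 1.30, 1.25 and 1.37 in C, 1.25 and 1.16 in DM-22, and 1.11 and 1.11 in DM+SGLT2i. It was 1.31 ± 0.0585 (SD, n = 3) in C and 1.16 ± 0.0648 (SD, n = 4) in the diabetic mice. The lowest control and the highest diabetic library, C replicate 8 and DM-22 replicate 1, differed by less than the counting error of up to 3.52%. The exact permutation test over the libraries, two-sided with 35 arrangements, gave p = 0.0571, the smallest p this design allows, and 1 after Benjamini-Hochberg adjustment over the 45 ratios. Scnn1a to Scnn1b was 2.81, 2.89 and 2.72 in C, 4.24 and 3.16 in DM-22, and 2.54 and 2.78 in DM+SGLT2i. The diabetic and control libraries overlapped in it (exact permutation p = 0.571 for diabetic against C).

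**Figure D5:**
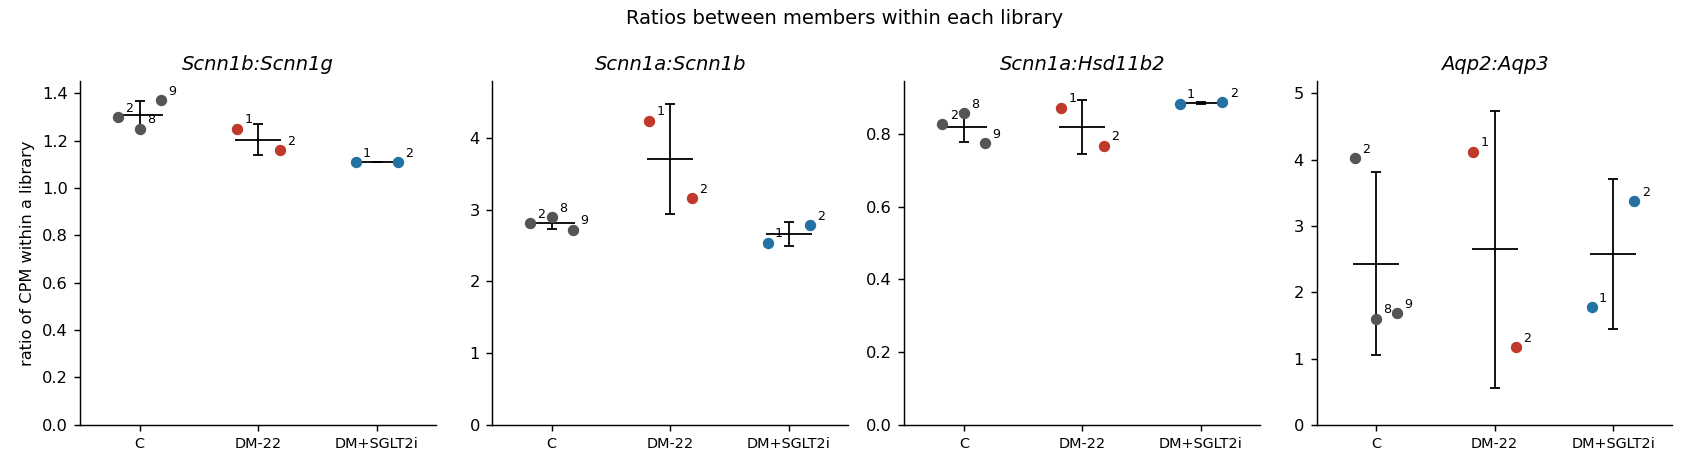
Ratio of CPM between 2 members within each library (vertical axes from 0), by group, with points numbered by replicate and bars for the mean and SD (n = 3, 2 and 2). Scnn1b to Scnn1g lies between 1.25 and 1.37 in C and between 1.11 and 1.25 in the diabetic libraries, and Scnn1a to Hsd11b2 between 0.767 and 0.887 in all.

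The genes around the members were measured as lists, and with all 7 libraries no gene of a list passed the adjusted threshold in limma. The values of this and the following paragraphs are from that fit unless C replicate 2 is said to be left out. Of the 10 collecting duct identity genes, 10 had a log2 fold change above 0 in the diabetic mice against C, with a median of 0.23, beside 0.00 over all genes, and 0 were under 0.05 unadjusted. In this list the potassium channel gene Kcnj1 (ROMK), also a thick ascending limb gene, had 416, 128 and 124 CPM in C, 394 and 346 CPM in DM-22, and 209 and 425 CPM in DM+SGLT2i (log2 fold change 0.82 ± 0.48, adjusted p = 0.988). The transcription factor Tfcp2l1, the highest of the list in CPM, was at 313 ± 27.4 CPM in C (SD, n = 3) and 364 CPM in the diabetic mice (log2 fold change 0.21 ± 0.15, adjusted p = 0.988).

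Downstream of the V2 receptor, 19 of 20 genes of cyclic AMP signalling and vesicle traffic were tested. Of these, 7 had a log2 fold change above 0 and 12 below it in the diabetic mice against C, with a median of -0.04, and 1 was under 0.05 unadjusted. That gene was the cyclic AMP phosphodiesterase Pde4d, at 23.4, 44.8 and 41.6 CPM in C, 18.9 and 19.1 CPM in DM-22, and 27.9 and 22.6 CPM in DM+SGLT2i. Both DM-22 libraries were below all 3 controls, as in 9.29% of all genes, but C replicate 2 lay among the diabetic libraries. Its log2 fold change was -0.68 ± 0.24 in the diabetic mice against C (limma, unadjusted p = 0.0286, adjusted p = 0.988). The syntaxin gene Stx3 followed with -0.34 ± 0.16, and the G protein gene Gnas, the highest of the list in CPM, had 0.10 ± 0.15.

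Of the 20 genes of the aldosterone response and of ENaC regulation, 11 had a log2 fold change above 0 and 9 below it, with a median of 0.05 (-0.07 without C replicate 2), and 1 was under 0.05 unadjusted. Usp2, a deubiquitinating enzyme whose transcript follows aldosterone and the circadian clock, was at 157, 219 and 243 CPM in C, 147 and 133 CPM in DM-22, and 167 and 148 CPM in DM+SGLT2i. Its log2 fold change was -0.45 ± 0.18 (limma, unadjusted p = 0.0387, adjusted p = 0.988). Clock genes differed in the same libraries: Dbp was at 168, 225 and 220 CPM in C and between 37.6 and 106 CPM in the diabetic libraries, and Arntl, which peaks in antiphase, at 1.21 to 1.77 CPM in C and 5.07 to 19.4 CPM in the diabetic libraries. Over the whole lists, 8 of 8 clock genes peaking opposite to Arntl were below 0 (5 unadjusted) and 5 of 5 peaking with it above 0 (3 unadjusted) in the diabetic mice against C. The median log2 fold change of the first list was -0.79 in DM-22 and -0.62 in DM+SGLT2i against C, and that of the second 1.26 and 0.74. The part of the time of sampling in the values of Usp2, and of the sodium genes that have a daily rhythm, was not tested. Fkbp5, a glucocorticoid and mineralocorticoid target, had 0.33 ± 0.16 (adjusted p = 0.988).

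The other aquaporins had 4 of 5 tested genes above 0, with a median of 0.13 (0.36 without C replicate 2), and Aqp1, the channel of the proximal tubule and thin limb and the highest of them in CPM, was at 1238 ± 371 CPM in C (SD, n = 3) and 1387 CPM in the diabetic mice. Of the genes that answer to tonicity, 3 of 7 were above 0, with a median of -0.16 (0.22 without C replicate 2), and 1 was under 0.05 unadjusted. Akr1b3, the aldose reductase that makes sorbitol from glucose, was at 73.2, 48.2 and 59.7 CPM in C, 91.3 and 70.8 CPM in DM-22, and 88.4 and 75.2 CPM in DM+SGLT2i. The 4 diabetic libraries were above 2 of the 3 controls, and all but DM-22 replicate 2 above the third, with a log2 fold change of 0.44 ± 0.18 (limma, unadjusted p = 0.046, adjusted p = 0.988). The taurine transporter Slc6a6, the highest of that list in CPM, had -0.16 ± 0.29.

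Intercalated cells are the other cell type of the collecting duct, and their 10 markers summed to 425 to 715 CPM in C and 466 to 717 CPM in the diabetic libraries, with a median log2 fold change of 0.09 (0.32 without C replicate 2). The 10 proximal tubule markers summed to 10687 to 25135 CPM in C and 11394 to 23005 CPM in the diabetic libraries, with a median of -0.10. The 6 thick ascending limb markers ran from 3774 to 6392 CPM and from 3359 to 13855 CPM (median 0.37), and the 6 distal convoluted tubule markers from 1323 to 2172 CPM and from 994 to 2626 CPM (median 0.31). For the 8 markers of inner medulla and urothelium the ranges were 29.4 to 153 CPM and 5.11 to 283 CPM (median 0.25). Outside the tubule, the 6 podocyte markers summed to 446 to 568 CPM in C and 316 to 801 CPM in the diabetic libraries, and the 6 endothelial markers to 444 to 601 CPM and 501 to 679 CPM. Each range in the diabetic libraries overlapped that of the controls.

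The genes most like a member over the 7 libraries were sought for Aqp2, Scnn1a, Hsd11b2 and Sgk1 among 11090 genes with a mean of at least 5 CPM, and the 3 closest to each were not other members. Among the members, Scnn1a and Hsd11b2 had r = 0.99 and Scnn1b and Scnn1g r = 0.98, as a description over 7 libraries. For Aqp2 they were Slc6a12 (Pearson r = 0.986), Gal3st1 (0.984) and Cth (0.979). Slc6a12 is the betaine transporter that renal medullary cells use against high tonicity, and it was at 13.4, 1.05 and 1.11 CPM in C, 30.8 and 0.601 CPM in DM-22, and 2.52 and 15.7 CPM in DM+SGLT2i. For Sgk1 they included Cldn15 (0.987) and Adora2a (0.976). For Scnn1a they were Fkbp3 (0.995), Cnn3 (0.993) and Nabp2 (0.991), and for Hsd11b2 Cmc2 (0.992), Bax (0.991) and Rps19 (0.991). Over 7 libraries such values are common: 50 genes reached r of 0.95 with Aqp2, 13 with Sgk1, 183 with Scnn1a and 214 with Hsd11b2, so these names describe the order of the libraries and no more.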

How the data were processed

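RNA-seq of whole kidney was analysed in 7 libraries (C, n = 3; DM-22, n = 2; DM+SGLT2i, n = 2), grouped by the labels. The deposited table holds log2 CPM per gene, made by the authors with TMM scaling and a prior count that averages 2 reads; the processing notes name STAR, edgeR and mm10 without versions, and the counter is not given in the sources used here. CPM was recovered by undoing the log2 and subtracting the floor of 0.0395 CPM, and 100% of values then were whole reads within 0.001. log2(CPM + 0.5) of the 13976 genes that reached 1 CPM in 2 or more libraries was fitted in limma 3.58.1 (R 4.3.3). The fit used eBayes with trend, 3 groups together, two-sided p-values, Benjamini-Hochberg adjustment and a threshold of 0.05. It was also run on simulated reads with a single dispersion and no outlying library. That run therefore does not show how the fit behaves on these libraries. A fold change on this scale understates that of low genes. Ratios were compared by exact permutation over libraries (Python 3.11.15, scipy 1.17.1).

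The members and lists were chosen with earlier results of these data known. Named besides the members were, of each list, genes past the threshold, otherwise at most 2 with the smallest unadjusted p in diabetic against C, and the highest; Slc12a1, Slc14a2, Slc34a1, Fos, Dbp, Arntl and Slc6a12 illustrate a list or library and were partly chosen after their values were seen. Some genes that this rule names are not reported here. Alternatives were other pseudocounts, filter, scalings, voom, eBayes without trend, fits of only the libraries compared, each library left out, a replicate block, centring on the collecting duct list and, chosen after seeing the data, a thick ascending limb covariate.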

Additional observations from a re-analysis of the deposited data

How the results depend on the processing

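The log2 fold changes of the 10 members in 4 comparisons gave 40 values, which 720 fits under alternatives repeated. None passed the adjusted threshold in any of these (lowest adjusted p 0.105), 664 kept their sign and 56 took the other, 36 of them with a library left out. The cause was not tested. The number of genes past the threshold was 0 under every alternative run except without C replicate 2. With 1 library left out it ran from 0 to 2 in DM-22 against C, from 0 to 17 in DM+SGLT2i against C and from 0 to 28 in diabetic against C, and without DM-22 or DM+SGLT2i libraries the lone library of a group is assumed to vary like the others.

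With 1 library left out, the log2 fold change in DM-22 against C ran from -0.59 to 1.35 for Aqp2, from -3.12 to 1.51 for Aqp4, from -0.20 to 0.54 for Scnn1b, from -0.14 to 0.66 for Scnn1g and from -0.41 to 1.20 for Sgk1. In DM+SGLT2i against C it ran from -0.34 to 0.93 for Aqp2, from -0.029 to 0.32 for Aqp3, from -0.65 to 0.59 for Aqp4, from -0.12 to 0.60 for Scnn1a, from -0.23 to 0.48 for Hsd11b2 and from -0.050 to 0.098 for Nr3c2. In DM+SGLT2i against DM-22 it ran from -1.06 to 0.88 for Aqp2, from -1.54 to 3.09 for Aqp4, from -0.91 to 0.19 for Avpr2, from -0.20 to 0.47 for Scnn1b, from -0.14 to 0.64 for Scnn1g and from -0.79 to 0.82 for Sgk1. In diabetic against C it ran from -0.15 to 0.82 for Aqp2, from -1.57 to 0.74 for Aqp4, from -0.050 to 0.61 for Scnn1b, from -0.13 to 0.021 for Nr3c2 and from -0.0001 to 0.81 for Sgk1.

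Relative to the collecting duct markers, the sign turned in DM-22 against C for Scnn1b (-0.24) and Scnn1g (-0.11), in DM+SGLT2i against C for Aqp2 (-0.039), Aqp3 (-0.18), Scnn1a (-0.15), Scnn1b (-0.067), Hsd11b2 (-0.26) and Nr3c2 (-0.32), and in diabetic against C for Aqp2 (-0.0098), Aqp3 (-0.079), Scnn1a (-0.0002), Scnn1b (-0.15) and Hsd11b2 (-0.055). With the thick ascending limb covariate, chosen after seeing the data, it turned in DM-22 against C for Aqp2 (-0.24) and Sgk1 (-0.036), and for Aqp2 in DM+SGLT2i against C (-0.057), in DM+SGLT2i against DM-22 (0.18) and in diabetic against C (-0.15). In DM+SGLT2i against DM-22 Aqp2 was 0.016 when scaled to the library total, and Sgk1 -0.015 with median-of-ratios size factors.

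Replicate numbers 1 and 2 are shared by the diabetic groups, and deviations of same-numbered libraries correlated at -0.0412. With 2 libraries a group this rests on a single contrast in each, so it does not decide whether the numbers pair anything. With a replicate block over those 4 libraries, 0 genes passed (547 unadjusted without the block, 696 with it) and no member's call changed. With 2 or 3 libraries a group, differences of the size of the intervals given could not be detected.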
